A study of Mus musculus with 6 samples.

Results

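The genes described here encode the MHC class II antigen presentation machinery: H2-Aa, H2-Ab1, H2-Eb1, Cd74, Ciita, H2-DMa, H2-DMb1 and H2-DMb2. They were taken from the deposited table wherever a transcript cluster, the array's unit for one gene, carried exactly 1 gene symbol in the platform annotation. By this rule 7 of the 8 genes were measured, out of 30063 named genes in all; the cluster of Cd74 also carries the symbol of a microRNA gene and was not used. Each of the 7 had a single cluster.

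Ventricles of 6 male mice on the C57BL/10 background were profiled, each on its own Affymetrix array. Every mouse, controls included, was dystrophin-deficient (mdx) and had a single functional utrophin allele (utrn+/-), a genotype the labels call Het; there was no wild-type group. In the finerenone group, 3 mice ate a Teklad rodent chow with 100 ppm of finerenone, a non-steroidal mineralocorticoid receptor antagonist, from 4 weeks of age. The 3 untreated mice ate that chow without the drug, and all mice were 20 weeks old at collection. The comparison asks which ventricular transcripts differ with the drug in this dystrophic background. RNA came from whole tissue, so fewer cells of a type and less RNA per cell cannot be told apart.

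MHC class II molecules are pairs of an alpha and a beta chain that display peptides from endocytosed protein to CD4 T cells. Mice have I-A (H2-Aa with H2-Ab1) and, in some haplotypes, I-E (H2-Ea with H2-Eb1); the haplotype of C57BL strains carries a defective H2-Ea, so no I-E reaches the surface. The invariant chain Cd74 guards the groove until cathepsins degrade it, and H2-DM then exchanges its last fragment for peptide. In the heart the main carriers of class II are macrophages and dendritic cells, and the coactivator Ciita drives the others through the X and Y boxes of their promoters.

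Promoter windows are shown because the genes share these boxes, the sequence feature through which they are known to be switched on together. RefSeq windows (GRCm38.p6) were at hand for 5 of the 8 genes, and the 250 bases before each start were searched on both strands. The motifs were chosen with the sequences in view: GATTGG, the core of the Y box, GATGATG, the end of an X box form, and TGACGTCA, a cAMP response element. These 3 motifs are printed in capitals, and each sequence is read 5′ to 3′ along the gene's strand.
H2-Aa: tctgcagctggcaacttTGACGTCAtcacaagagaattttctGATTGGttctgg
H2-Eb1: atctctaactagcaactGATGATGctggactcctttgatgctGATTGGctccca
H2-DMb1: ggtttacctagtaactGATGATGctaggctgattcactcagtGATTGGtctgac
H2-DMb2: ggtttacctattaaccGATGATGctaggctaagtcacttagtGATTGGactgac
In order they lie at chr17:34287861-34287914 (minus strand), chr17:34305765-34305818, chr17:34153087-34153140 and chr17:34145116-34145169 (plus strand). The Y box core began 49 bases before the start in H2-Aa, 60 in H2-Eb1, 62 in H2-DMb1 and 91 in H2-DMb2. GATGATG stood 18 bases upstream of it in H2-Eb1 and 19 in both H2-DMb genes. H2-Aa lacked this exact string and held the cAMP response element upstream of its Y box core. Other forms of the X box were not searched, so this does not show that H2-Aa lacks an X box. H2-DMa had GATTGG alone, 199 bases before one of its starts. Of 32851 promoters searched in this way, GATTGG occurred in 14.6%, GATGATG in 2.92%, both together in 0.347%, and TGACGTCA in 1.55%.

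The arrays were alike over all transcript clusters, with Pearson correlations of 0.989 to 0.994 between pairs; untreated replicate 1 had the lowest mean correlation with the others (0.990). Values are log2 signals from 1.94 to 19.93, and probe sets the table calls negative controls had medians of 5.04 to 5.33. Cardiomyocyte markers were bright, with Tnnt2 at 19.92 to 19.93 and Myh6 at 19.60 to 19.65, as known of ventricular tissue. All 8 B cell and all 9 T and NK cell markers measured had means below the overall negative control median of 5.19. Of the 12 macrophage and monocyte markers 12 had means above it, and of 10 dendritic cell markers 4 did. Among all 30063 genes 13987 had means at or above it.

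None of the 7 class II genes passed the threshold between treated and untreated hearts. At an adjusted p below 0.05 in limma, 0 of 7 were called, against 0% of all 30063 genes, and at an unadjusted p below 0.05 again 0 of 7, against 7.81% of all genes. The 2 groups overlapped in every one of the 7, while they did not overlap in 12.3% of all genes. Of the 7 differences 5 were above 0 and 2 below, with a median of 0.04 beside a median of 0.03 over all genes, of which 58.2% were above 0. For H2-Aa, H2-Ab1 and H2-Eb1 the SD within a group was larger than the difference between the group means.

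H2-Ab1, the I-A beta chain, measured 11.61, 10.40 and 11.06 in the finerenone mice and 10.77, 11.31 and 10.20 in the untreated mice. The highest array was treated, the second highest untreated, and the lowest untreated, so the groups interleave. The means were 11.02 ± 0.60 and 10.76 ± 0.55 (SD, n = 3 each), a log2 difference of 0.26 ± 0.38 (SE; limma adjusted p = 0.903). The 95% interval ran from -0.65 to 1.18, so neither a doubling nor equality is outside it. From lowest to highest mouse the signal spanned 2.66-fold, against 1.20-fold between the group means.

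H2-Aa, the I-A alpha chain that pairs with it, measured 6.45, 5.73 and 5.69 in treated hearts and 6.15, 6.18 and 5.25 in untreated hearts. Again finerenone replicate 1 was highest and untreated replicate 3 lowest. Means were 5.96 ± 0.43 and 5.86 ± 0.53 (SD, n = 3 each), and the log2 difference was 0.10 ± 0.32 (SE; limma adjusted p = 0.967; 95% interval -0.67 to 0.86). The signs of H2-Aa and H2-Ab1 rest on single mice. Without finerenone replicate 1 the differences were -0.15 and -0.03, and without untreated replicate 3 they were -0.21 and -0.02.

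H2-Eb1, the I-E beta chain, is transcribed in these mice although its partner is defective. It measured 9.32, 8.01 and 8.68 in treated and 8.81, 9.27 and 8.08 in untreated hearts, with finerenone replicate 1 and untreated replicate 2 the highest and 1 array of each group at or below 8.08. The means, 8.67 ± 0.65 and 8.72 ± 0.60 (SD, n = 3 each), differed by -0.05 ± 0.41 on the log2 scale (SE; limma adjusted p = 0.992; 95% interval -1.03 to 0.94). The sign turned with array weights (0.10), without finerenone replicate 2 (0.28) and without untreated replicate 2 (0.23).

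**Figure D1:**
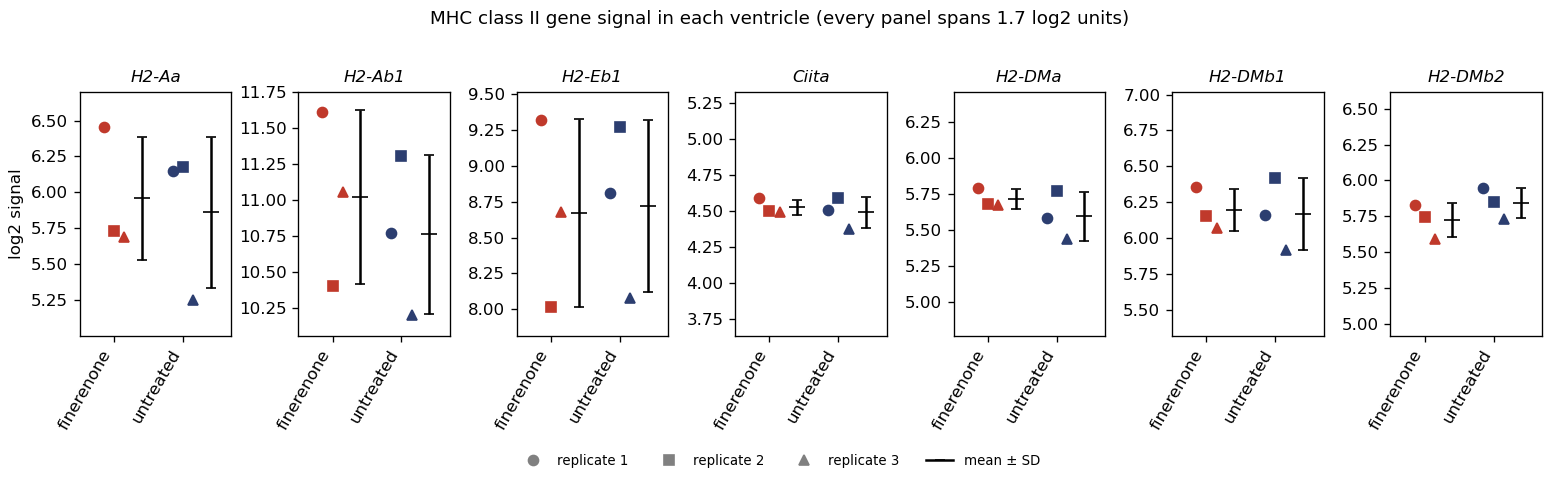
Log2 signal (y axis) of the 7 class II genes in 3 finerenone and 3 untreated mice, each panel with its own level but the same span of 1.7 log2 units; symbols are replicates, bars the mean ± SD. H2-Aa, H2-Ab1 and H2-Eb1 spread over 1.20 to 1.41 log2 units with the groups interleaved, while Ciita and the H2-DM genes spread over 0.21 to 0.50.

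Ciita, the master coactivator of the whole set, was dim. Its values were 4.59, 4.50 and 4.49 in treated and 4.51, 4.59 and 4.38 in untreated hearts, below the negative control median in every array. The difference was 0.04 ± 0.09 (SE; limma adjusted p = 0.952; 95% interval -0.17 to 0.25), and without untreated replicate 3 it was -0.02. At this signal a difference in the coactivator was not measurable with confidence.

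The H2-DM genes form the peptide exchanger, H2-DMa being its alpha chain and the neighbouring copies H2-DMb1 and H2-DMb2 its beta chains. H2-DMa measured 5.79, 5.68 and 5.67 against 5.58, 5.77 and 5.43, a difference of 0.12 ± 0.11 (SE; limma adjusted p = 0.833). H2-DMb1 measured 6.36, 6.16 and 6.07 against 6.16, 6.42 and 5.92, a difference of 0.03 ± 0.15 (limma adjusted p = 0.984). Both overlapped between groups, and H2-DMb1 changed sign without finerenone replicate 1 (-0.05) or untreated replicate 3 (-0.10). H2-DMb2 measured 5.83, 5.75 and 5.59 against 5.94, 5.85 and 5.73, a difference of -0.12 ± 0.10 (limma adjusted p = 0.814). The 95% intervals of the 3 genes lay between -0.36 and 0.39. Because the H2-DMb copies are closely related, signal from one may be counted in the other, and their separate values are uncertain.

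The spread between mice of a group was wider for the 3 chain genes than for Ciita and the H2-DM genes. The within-group SD was 0.48 for H2-Aa, 0.58 for H2-Ab1 and 0.63 for H2-Eb1, beside a median of 0.16 over all genes. These stood at percentiles 98.0, 99.0 and 99.2 of the 30063 genes, and among genes with a mean of at least 6 H2-Ab1 and H2-Eb1 were at percentiles 98.3 and 98.7. H2-DMb1 (0.20), H2-DMa (0.13), H2-DMb2 (0.11) and Ciita (0.08) were at percentiles 67.3, 38.0, 29.6 and 17.1. The last 3 lay near or below the negative controls.

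**Figure D2:**
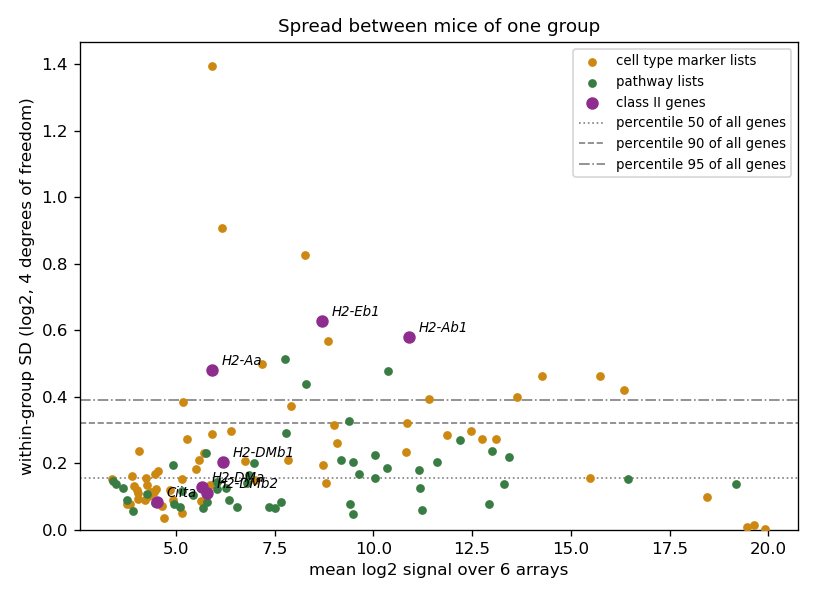
Within-group SD (y axis, log2) against mean log2 signal (x axis) for the class II genes, the pathway lists and the cell type marker lists, with grey lines at percentiles 50, 90 and 95 of all genes. H2-Eb1 (0.63), H2-Ab1 (0.58) and H2-Aa (0.48) lie above the top line.

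The 3 chain genes were highest in the same mice but did not rank alike in the others. In finerenone replicate 3, counted from the highest array, H2-Aa had rank 5, H2-Ab1 rank 3 and H2-Eb1 rank 4. Finerenone replicate 1 was the highest array for H2-Aa, H2-Ab1, H2-Eb1, Ciita and H2-DMa and the second highest for H2-DMb1, and untreated replicate 2 was first or second for all 7 genes. Untreated replicate 3 was the lowest array for H2-Aa, H2-Ab1, Ciita, H2-DMa and H2-DMb1. Finerenone replicate 2 was lowest for H2-Eb1, and finerenone replicate 3 for H2-DMb2.

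Over the 6 arrays all 21 pairs of the 7 genes correlated above 0, with a median Pearson r of 0.839 and a range of 0.103 to 0.965. H2-Ab1 and H2-Eb1 had r = 0.947 (exact permutation p = 0.0153, adjusted over the 21 pairs 0.0792) and rho = 0.886 (exact permutation p = 0.0333, adjusted 0.111). Without the 2 arrays farthest from the median of H2-Ab1, r was 0.919. H2-Aa and H2-Ab1 had r = 0.840 (exact permutation p = 0.0389, adjusted 0.0817) and rho = 0.829 (exact permutation p = 0.0583, adjusted 0.111), but r = 0.439 without finerenone replicate 1 and untreated replicate 3, so this relation rests on those mice. H2-Aa and H2-Eb1 had r = 0.864 (exact permutation p = 0.0347, adjusted 0.0810) and rho = 0.829 (exact permutation p = 0.0583, adjusted 0.111), and r = 0.749 without the same 2 arrays. With deviations from each group's mean in place of the values, the 3 correlations were 0.997, 0.843 and 0.877.

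Adjusted over the 21 pairs, 2 passed on Pearson's r, each involving Ciita. Ciita and H2-DMb1 had r = 0.965 (exact permutation p = 0.00278, adjusted 0.0292) and rho = 0.943 (exact permutation p = 0.0167, adjusted 0.111), with r = 0.982 without 2 arrays. Ciita and H2-Aa had r = 0.927 (exact permutation p = 0.00139, adjusted 0.0292) and rho = 1 (exact permutation p = 0.00278, adjusted 0.0583), with r = 0.714 without finerenone replicate 1 and untreated replicate 3. All values of Ciita lay below the negative control medians, and both relations are over 6 mice. On Pearson's r H2-DMb2 stood apart, with 0.103 (H2-DMa) to 0.619 (H2-Aa) with the other genes and 0.492 with its copy H2-DMb1. By rank it stood apart less, with rho from 0.257 (H2-DMa) to 0.771 (H2-DMb1). With deviations from each group's mean its r ran from 0.412 (H2-Ab1) to 0.828 (H2-Aa).

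**Figure D3:**
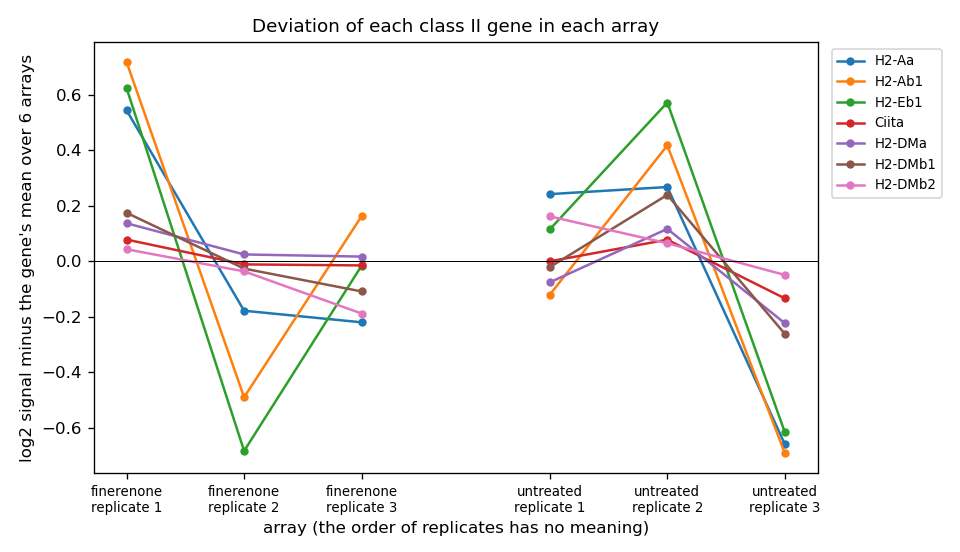
Log2 signal of each class II gene minus its own mean over the 6 arrays (y axis) in each array (x axis); lines only join points of one gene within a group. The 3 chain genes are raised in finerenone replicate 1 and untreated replicate 2 and lowered in finerenone replicate 2 and untreated replicate 3.

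Genes most like the mean of H2-Aa, H2-Ab1 and H2-Eb1 over the 6 arrays were sought among 11343 other genes with a mean of at least 6. The top 5 were Lsg1, a GTPase of ribosome assembly (Pearson r = 0.989), Tagap, a GTPase-activating protein of T cells (0.980), Pitrm1, a mitochondrial peptidase (0.971), Gm6206 (0.971) and Gsn, the actin-severing protein gelsolin (0.967). The likeness is over 6 arrays alone, and 38 of the 11343 genes reached 0.9. Among the markers, and chosen after their values were seen, the macrophage genes Csf1r and Adgre1 had r of 0.910 and 0.888, the highest of 12 macrophage and monocyte markers. The others ran from -0.52 (Lyve1) to 0.788 (Cd68), with Ccr2, Cd163, Itgam and Mertk between -0.028 and 0.094, and the dim B cell marker Pax5 had 0.884. Adgre1, the F4/80 antigen, measured 8.54, 7.81 and 7.86 in treated and 7.73, 8.11 and 7.43 in untreated hearts. Csf1r, the receptor of macrophage colony-stimulating factor, measured 9.42, 8.73 and 9.08 against 9.13, 9.18 and 8.91. For both genes finerenone replicate 1 was highest and untreated replicate 2 next, as for H2-Ab1.

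Of 15 measured genes of the loading route, 0 passed the adjusted threshold, 12 were above 0 and 3 below, and the median difference was 0.07. Over all genes 58.2% were above 0, with a median of 0.03. At an unadjusted p below 0.05, 3 of 15 were higher in treated hearts, where 5.69% of all genes were, and 0 were lower, where 2.12% were. These 3 include H2-Ea, which lay below the negative control medians. Means at or above the overall negative control median were seen in 10 of the 15, beside 13987 of all 30063 genes. Ifi30, the lysosomal thiol reductase that opens disulfide bonds of antigens, measured 7.92, 7.86 and 8.49 in treated and 7.66, 7.50 and 7.23 in untreated hearts. Every treated value lay above every untreated one, with a difference of 0.62 ± 0.20 (SE; limma adjusted p = 0.597), which was 0.42 without finerenone replicate 3. Over the list the groups did not overlap in 3 of 15 genes, beside 12.3% of all genes.

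Lgmn, the asparaginyl endopeptidase legumain that starts invariant chain cleavage, measured 11.32, 11.19 and 11.49 against 10.77, 11.18 and 10.95. The groups were separated by a narrow gap, and the difference was 0.37 ± 0.13 (SE; limma adjusted p = 0.608). Ctss, cathepsin S, which makes the last cut in the invariant chain, is named after its values were seen because its difference was the widest of the list. It measured 11.08, 10.18 and 10.90 against 9.81, 10.55 and 9.65, overlapping in 1 mouse of each group, with a difference of 0.72 ± 0.32 (SE; limma adjusted p = 0.653). The 95% interval of Ctss, -0.04 to 1.47, holds 0.

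H2-Ea, the defective I-E alpha gene, measured 3.45, 3.75 and 3.73 against 3.25, 3.43 and 3.27, a difference of 0.32 ± 0.11 (SE; limma adjusted p = 0.607). All 6 values lay below the negative control medians. The accessory class II genes H2-Oa, H2-Ob and H2-Eb2 were at or below 4.55 in every array, with differences of -0.06, -0.01 and 0.07. Of the costimulators, Cd86 differed by 0.11 ± 0.11 and Cd80 by 0.02 ± 0.16 (SE), and their groups overlapped. Marchf1, the ubiquitin ligase that removes class II from the surface, differed by 0.09 ± 0.10.

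**Figure D4:**
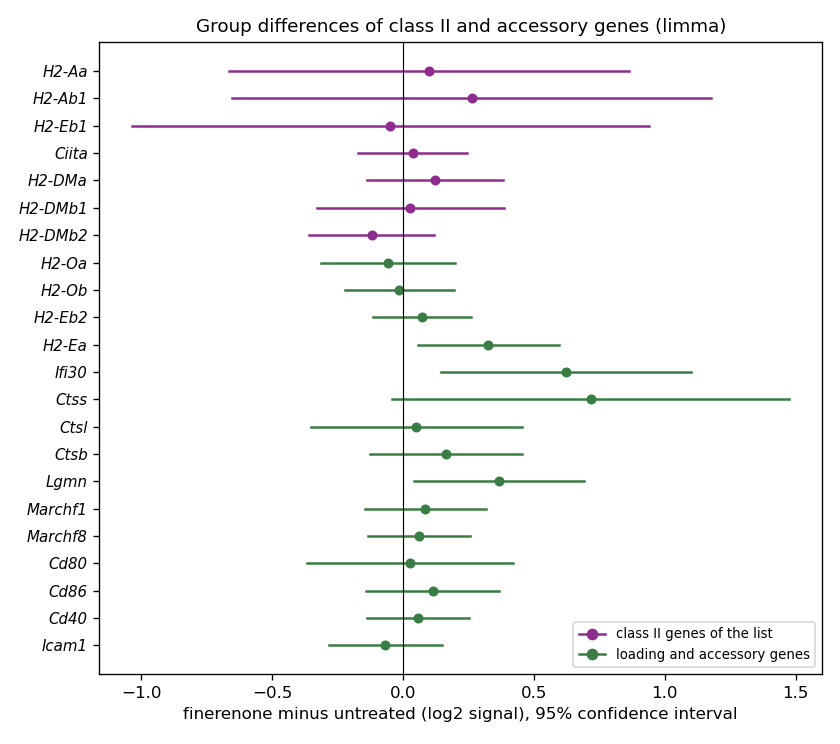
Finerenone minus untreated log2 signal (x axis) with its 95% confidence interval for the 7 class II genes and 15 loading and accessory genes. The intervals of all 7 class II genes hold 0, and those of Ifi30, Lgmn and H2-Ea do not, at adjusted p-values of 0.597 to 0.608 in limma.

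Upstream genes were tested in the same fit. Of 11 measured genes of the complex that binds class II promoters, 0 passed the adjusted threshold. At an unadjusted p below 0.05 there were 0 in either direction, where 5.69% of all genes were higher and 2.12% lower. The RFX subunits Rfx5, Rfxank and Rfxap differed by -0.05, 0.04 and -0.01. By the smallest unadjusted p, the coactivator Crebbp differed by -0.32 ± 0.15, Creb1, which binds the X box region, by 0.22 ± 0.15, and the acetyltransferase Kat2b by -0.11 ± 0.08 (SE). Crebbp was -0.20 without untreated replicate 1, and Creb1 ran from 0.11 to 0.38 and Kat2b from -0.14 to -0.06 with single arrays left out. Kat2b was -0.19 after quantile normalization and -0.18 after cyclic loess.

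Interferon gamma induces Ciita through promoter IV of that gene. Of 12 measured genes of this signalling route 0 passed the adjusted threshold. The differences of 6 were above 0 and of 6 below, beside 58.2% of all genes above 0. An unadjusted p below 0.05 was found for 0 of the 12, beside 7.81% of all genes. Gbp2, a guanylate-binding protein induced by interferon, measured 9.47, 10.07 and 9.36 against 9.30, 9.22 and 8.80. The groups did not overlap, and the difference was 0.53 ± 0.22 (SE; limma adjusted p = 0.644), or 0.31 without finerenone replicate 2. Over the list the groups did not overlap in 2 of 12 genes, beside 12.3% of all genes. Gbp3 differed by 0.29 ± 0.13, and was 0.18 without finerenone replicate 2. Ifng itself differed by -0.25 ± 0.12 at 3.15 to 3.68, below the negative control medians.

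For class I presentation, the companion route for cytosolic peptides, 0 of 12 measured genes passed the adjusted threshold and 2 of 12 were higher at an unadjusted p below 0.05 (5.69% of all genes). Calr, the chaperone calreticulin, differed by 0.26 ± 0.08 and Psmb9, an immunoproteasome subunit, by 0.22 ± 0.08 (SE; limma adjusted p = 0.597 and 0.618), with groups that did not overlap in either. Over the list the groups did not overlap in 4 of 12 genes, beside 12.3% of all genes. Calr was 0.15 after quantile normalization and 0.17 after cyclic loess. Psmb9 had means of 5.06 in treated and 4.84 in untreated hearts, below the overall negative control median of 5.19. Erap1, the peptidase that trims class I peptides, differed by -0.15 ± 0.08, and by -0.10 without untreated replicate 1.

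Markers of the cells that carry class II were measured in the same hearts. Of 12 macrophage and monocyte markers 12 were above 0, where 58.2% of all genes were, with a median difference of 0.28. Of these 0 passed the adjusted threshold, and 3 were higher at an unadjusted p below 0.05, where 5.69% of all genes were. Their mean level was 8.92, 8.69 and 8.98 in treated and 8.53, 8.70 and 8.45 in untreated hearts. Fcgr1, a high-affinity Fc receptor, differed by 0.60 ± 0.20 and Ccr2, the monocyte chemokine receptor, by 0.51 ± 0.14 (SE; limma adjusted p = 0.604 and 0.597). Ccr2 measured 5.55, 5.66 and 6.05 in treated and 5.25, 5.23 and 5.25 in untreated hearts. Its untreated values lay near the overall negative control median of 5.19. Csf1r differed by 0.00 ± 0.18. The part of these cells in the class II values was not tested.

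Of 10 dendritic cell markers 5 were above 0 and 5 below, with a median of -0.01, beside 58.2% of all genes above 0. Of these markers 0 passed the adjusted threshold. At an unadjusted p below 0.05, 1 was higher and 2 were lower, where 5.69% and 2.12% of all genes were. Cd209a, a lectin of monocyte-derived dendritic cells, measured 6.58, 5.91 and 6.09 against 5.83, 5.63 and 5.40, a difference of 0.57 ± 0.20 (SE; limma adjusted p = 0.607) and of 0.38 without finerenone replicate 1. Ccr7, the receptor that guides mature dendritic cells to lymph nodes, measured 5.86, 5.51 and 5.57 against 6.07, 6.16 and 6.06, a difference of -0.45 ± 0.11 (limma adjusted p = 0.597). In neither gene did the groups overlap, and over the list they did not in 3 of 10 markers, beside 12.3% of all genes. The lineage genes Flt3, Xcr1, Clec9a and Batf3 were below 4.8 in every array. Zbtb46, a brighter gene of the list named after its values were seen, measured 5.61, 5.47 and 5.46 against 5.71, 5.75 and 6.28. It differed by -0.40 ± 0.16 (SE; limma adjusted p = 0.638), the other way from Cd209a, and its groups did not overlap. The mean levels of B cell markers were 4.01 to 4.09 in treated and 4.12 to 4.19 in untreated hearts, with Ms4a1 at -0.23 ± 0.17 and Blk at -0.16 ± 0.10. Leaving out finerenone replicate 2 put Ms4a1 at -0.10, leaving out untreated replicate 3 at -0.15 and leaving out untreated replicate 1 at -0.37, and Blk was -0.24 without untreated replicate 3. Mean levels of T and NK markers were 4.31 to 4.37 and 4.40 to 4.43. Klrb1c differed by -0.28 ± 0.10 and Cd3e by -0.17 ± 0.09. The list means of B cells and of T and NK cells did not overlap between groups but lay below the negative controls. List means of the loading route and of endothelial markers did not overlap either. Gene by gene, the groups did not overlap in 0 of 8 B cell and 2 of 9 T and NK markers, beside 12.3% of all genes. At an unadjusted p below 0.05 in limma, 0 of 8 and 1 of 9 were lower, where 2.12% of all genes were, and 0 were higher.

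Other cells of the ventricle were measured for comparison. Endothelial markers were below 0 in 8 of 8, with a median of -0.39, Kdr at -0.86 ± 0.27 and Ptprb at -0.48 ± 0.19 (SE), beside 58.2% of all genes above 0. Of these 0 passed the adjusted threshold, and 2 were lower at an unadjusted p below 0.05, where 2.12% of all genes were. Their mean level was 11.59, 11.72 and 11.47 in treated and 12.35, 11.76 and 11.83 in untreated hearts, so untreated replicate 1 stood highest. Without that array Kdr was -0.585 and Ptprb -0.32, and without untreated replicate 2 they were -1.08 and -0.69. Granulocyte and mast cell markers had a median of -0.11, Mcpt4 at -0.44 ± 0.33 and Cxcr2 at -0.16 ± 0.12. Leaving out finerenone replicate 3 put Mcpt4 at -0.18, leaving out untreated replicate 1 at -0.21 and leaving out finerenone replicate 2 at -0.73, and Cxcr2 was -0.043 without untreated replicate 3 and -0.25 without untreated replicate 1. Cardiomyocyte markers had a median of 0.00, Ryr2 at -0.20 ± 0.28 and Myl2 at 0.14 ± 0.20. Among them Tnnt2, Myh6 and Pln lay between 19.46 and 19.93, where the highest signal of the arrays was 19.93. Their within-group SDs were 0.003, 0.016 and 0.009, and whether signals so close to the top can show a difference was not tested. Without untreated replicate 1, which correlated least with the other arrays, H2-Aa was at 0.24, H2-Ab1 at 0.27, H2-Eb1 at -0.003, H2-DMa at 0.11, H2-DMb1 at 0.02, H2-DMb2 at -0.07 and Ciita at 0.05.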

How the data were processed

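The deposited values are log2 signals per probe set. Per the submitters' processing notes, the authors used RMA, Transcriptome Analysis Console and Affymetrix Expression Console. The sources used here give no version or annotation build for them. RNA integrity numbers were above 7.3, per the labels' protocols, which also call the mice biological replicates.

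Symbols were updated by Entrez identifier or RefSeq synonym (GRCm38.p6). Of 65956 transcript clusters 30604 had 1 symbol, giving 30063 genes; for 429 genes with several clusters the brightest was used. Groups were compared with limma 3.58.1 in R 4.3.3 (lmFit, eBayes, two-sided, no covariate), with Benjamini-Hochberg adjustment over all genes and a threshold of 0.05. The code was tested on simulated data. No depth exists for arrays; their number, 3 per group, limits the precision. Differences are finerenone minus untreated.

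The 8 genes and all lists were chosen with earlier results of these data known. By rule the text names all measured class II genes, the 3 genes per pathway list and 2 per marker list with the smallest unadjusted p, and the 5 most like the chain genes. That rule also held Cd74, which could not be named. Exceptions are marked or given as list values. Alternatives covered normalization, filters, cluster means, prior, weights, replicate block and single arrays left out.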

Additional observations from a re-analysis of the deposited data

How the results depend on the processing

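No alternative brought a gene past the adjusted threshold in limma: 0 of all genes in each of the 15 alternatives, beside 2347 at an unadjusted p below 0.05 as reported. No class II gene reached an unadjusted p below 0.05 in any of them. The unadjusted count was 1482 among genes at or above the negative control median and 1306 among genes with a mean of at least 6, where fewer genes were tested, and 1685 to 2783 when each array was left out in turn. Of these calls 72.9% were higher in treated hearts as reported and 59.2% after quantile normalization. Replicate numbers were not used to pair the mice. Deviations of same-numbered arrays correlated at -0.15, 0.06 and 0.06, and those of differently numbered arrays at -0.17 to 0.12. With 3 arrays per group these values cannot decide on a pairing. With the replicate block the unadjusted count was 2312. Several signs turned when each array was left out, and the cause was not tested. H2-Aa lay between -0.21 and 0.26, H2-Ab1 between -0.032 and 0.57, H2-Eb1 between -0.37 and 0.28, Ciita between -0.021 and 0.084 and H2-DMb1 between -0.096 and 0.15. Ryr2 lay between -0.46 and 0.020, Myl2 between -0.091 and 0.27, Lsg1 between -0.051 and 0.097, Tagap between -0.029 and 0.24, Pitrm1 between -0.0096 and 0.12, Gm6206 between -0.014 and 0.10 and Gsn between -0.18 and 0.068. With array weights H2-Eb1 was 0.097 and Gsn 0.013. Pitrm1 and Gm6206 were -0.018 and -0.055 after quantile normalization and -0.012 and -0.052 after cyclic loess. H2-DMa and H2-DMb2 kept their signs in every alternative run, with 0.039 to 0.21 and -0.17 to -0.056 over the single arrays left out. Ciita was not tested among the 2 filtered sets, nor H2-Aa, H2-DMa or H2-DMb2 among genes with a mean of at least 6. Signals near the negative controls limit Ciita, H2-DMa, H2-DMb2 and H2-Aa.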
